A study of Mus musculus with 4 samples.

Results

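The genes described here are 35 antioxidant and glutathione genes of the mouse, taken by gene symbol from the 45706 genes measured in gonadal white adipose tissue (gWAT). They were chosen by function and comprise 3 superoxide dismutases, 12 peroxidases, 5 genes of the thioredoxin system, 10 of the glutathione system, 4 genes of the NRF2 pathway and 1 uncoupling protein. The study asked whether canagliflozin, an inhibitor of the kidney glucose transporter SGLT2, acts on senescent cells in obese adipose tissue. RNA was sequenced from 2 HFD+Cana mice and 2 HFD mice, all of strain C57B6/N and all kept on a high-fat diet for 2 months. The HFD+Cana mice also received canagliflozin at 0.03% w/w in the food for 7 days, and the HFD mice received none. Both groups were on the same fat-rich diet, so the values compare treated with untreated mice on that diet and not with lean mice, and the labels give no age. Levels are in TPM, the estimated share of a gene's transcripts among all transcripts, corrected for transcript length and scaled to the same total in every sample.

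Oxygen metabolism releases superoxide, which superoxide dismutases turn into hydrogen peroxide, and catalase, glutathione peroxidases and peroxiredoxins then reduce the peroxide. The glutathione peroxidases and peroxiredoxins draw their electrons from glutathione or thioredoxin, which glutathione reductase and the thioredoxin reductases recharge with NADPH. The transcription factor NRF2, held back by KEAP1 until oxidants or electrophiles modify KEAP1, switches on many of these genes. Some of the enzymes also clear lipid peroxides.

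The tissue label was checked against its markers before the members were read. All 12 adipocyte markers were detected in every mouse, and their summed level was 50170 and 61442 TPM in the HFD+Cana mice, against 51993 and 54940 TPM in the HFD mice. Fabp4 alone gave 27143 and 32474 TPM in the HFD+Cana mice, against 27661 and 28927 TPM in the HFD mice. Of the 12 markers, 2 were higher in both HFD+Cana mice (16.7%, against 24.3% of all genes tested). Another 5 were lower in both (41.7%, against 19.8%). Markers of other cell types also stood apart between the groups. The 13 mesothelial markers, genes of the cell layer that covers the fat pad, summed to 221 and 378 TPM in the HFD+Cana mice, against 75.8 and 61.5 TPM in the HFD mice, and none was at 0. Of 15 hepatocyte markers 13 were higher in both HFD+Cana mice (86.7%, against 24.3% of all genes tested). Alb, the albumin gene, was at 47.9 and 68.7 TPM in the HFD+Cana mice, against 3.0 and 5.38 TPM in the HFD mice, and Ttr, Fga and Fgg were at 0 in both HFD mice. Genes such as Ttr, Fga and Fgg were tested only because their level in the HFD+Cana mice brought their mean to the filter. The marker lists were also chosen with earlier results of these data known. The 7 red blood cell markers in the table summed to 14392 and 6673 TPM in the HFD+Cana mice, against 1757 and 5941 TPM in the HFD mice. Of 10 fibroblast and progenitor markers 5 were higher at an unadjusted p under 0.05 (50%, against 5.32% of all genes). Their median log2 fold change was 0.28. The list summed to 3793 and 2758 TPM in the HFD+Cana mice, against 2623 and 2581 TPM in the HFD mice, with none at 0. Pdgfrb was lower in both HFD+Cana mice. Col1a1, Col1a2 and Col3a1 were above both HFD mice in the first HFD+Cana mouse and below both in the second. Of 10 endothelial markers 5 were lower in both HFD+Cana mice (50%, against 19.8% of all genes tested) and 0 were higher in both. The part of these cells in the members' values was not tested. In bulk tissue, fewer cells of a type and less RNA per cell cannot be told apart.

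No member passed the test over all genes. In limma on log2(TPM + 1), with a mean of at least 1 TPM required and Benjamini-Hochberg adjustment over 13788 genes, 34 of the 35 members were tested and 0 were higher and 0 lower at an adjusted p under 0.05. Over all genes tested, 0.0435% (6 genes, all from the hepatocyte marker list) were higher and 0% were lower at that threshold. The HFD means of these 6 genes ran from 0 TPM (Ttr) to 0.988 TPM (Cyp2f2). They thus reached the required mean of 1 TPM only through the HFD+Cana mice. The smallest adjusted p of a member was 0.235 (Gpx3) and the largest 0.982 (Prdx3). At an unadjusted p under 0.05, 3 members were higher in the HFD+Cana mice (Gpx3, Gpx8 and Nfe2l2, 8.82% of the members tested, against 5.32% of all genes) and 1 was lower (Sod2, 2.94%, against 5.45% of all genes). The smallest p of an exact permutation test with 2 mice in each group is 0.333, above the threshold of 0.05.

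The members as a group also had no common direction. Their median log2 fold change was 0.04, beside 0.02 over all genes tested, with 19 positive and 15 negative values. Both HFD+Cana mice lay above both HFD mice in 13 members (38.2% of those tested), against 24.3% of all genes, and below them in 10 members (29.4%), against 19.8% of all genes. The remaining 11 tested members overlapped between the groups. Summed over all 35 genes, the members took 14774 and 15626 TPM in the HFD+Cana mice, against 14333 and 14332 TPM in the HFD mice, which is 1.48% and 1.56% of all transcripts, against 1.43% in each HFD mouse.

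**Figure D1:**
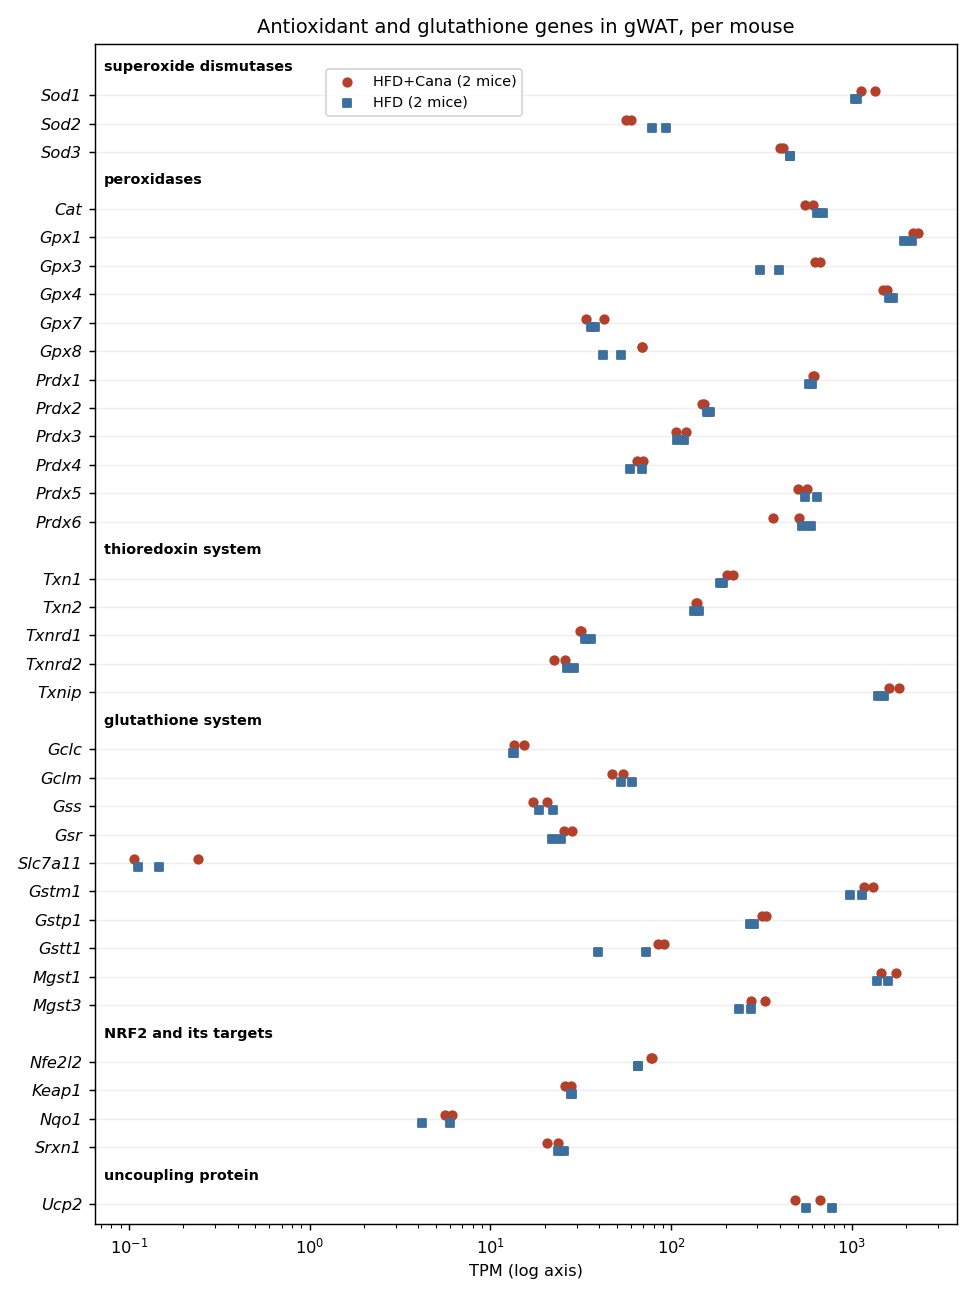
Level of each of the 35 members in each mouse, in TPM on a log axis, with circles for the 2 HFD+Cana mice and squares for the 2 HFD mice, in groups by role. The points of most members lie close together, those of Gpx3, Gpx8 and Sod2 lie apart by group, and Slc7a11 alone lies below 1 TPM.

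The 3 superoxide dismutases act in separate places: SOD1 in the cytosol, SOD2 in the mitochondrial matrix and SOD3 outside the cell. Sod2, the manganese enzyme (chr17:13006846-13040063, plus strand, GRCm38), had 60.1 and 56.4 TPM in the HFD+Cana mice, against 93.7 and 78.4 TPM in the HFD mice. Both treated mice were below both untreated mice, and the mean was 0.677 times that of the HFD mice. Its log2 fold change was -0.55 (SE 0.12, adjusted p = 0.268 in limma), and it lay between -0.68 and -0.42 when any 1 mouse was left out. Sod2 was the member with the most negative log2 fold change. Sod1 had 1125 and 1335 TPM in the HFD+Cana mice, against 1046 and 1065 TPM in the HFD mice. The groups did not overlap, but the treated mice differed from each other by more than the gap between the groups (log2 fold change 0.22, SE 0.13, adjusted p = 0.591 in limma), and the value was 0.09 to 0.34 with 1 mouse left out. Of the 611 words of 31 bases in its transcripts, 35.4% also occur in transcripts of other genes, chiefly the copy Gm8566, which was listed at 1.04 to 1.60 TPM. Sod3 had 414 and 401 TPM in the HFD+Cana mice, against 454 and 456 TPM in the HFD mice. The treated mice were the lower ones here too (log2 fold change -0.16, SE 0.08, adjusted p = 0.558 in limma). Because Sod1 makes up most of the summed level of the 3 genes, that sum was 1599 and 1792 TPM in the HFD+Cana mice, against 1594 and 1599 TPM in the HFD mice.

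Glutathione peroxidases fall into those that carry selenocysteine in the active site, which is read from a TGA codon, and those that carry cysteine. The following lines set it out for the 5 glutathione peroxidases among the members, because the members with the largest positive log2 fold changes among the peroxidases, Gpx3 and Gpx8, stand on opposite sides of it. Each line is the sense strand of the coding sequence around the active site, read from the GENCODE M21 transcripts of GRCm38, with the active-site codon in capitals.
Gpx1: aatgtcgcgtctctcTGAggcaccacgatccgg
Gpx3: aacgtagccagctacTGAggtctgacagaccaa
Gpx4: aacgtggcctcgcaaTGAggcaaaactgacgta
Gpx7: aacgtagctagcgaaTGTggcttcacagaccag
Gpx8: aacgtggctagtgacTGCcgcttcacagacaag
Gpx1, Gpx3 and Gpx4 have TGA, which codes for selenocysteine at codons 47, 73 and 129 of their coding sequences, whereas Gpx7 has TGT and Gpx8 has TGC, which code for cysteine. The codon numbers refer to the longest annotated coding sequences of Gpx1, Gpx3 and Gpx4 (201, 226 and 253 codons). They can differ in other transcripts of a gene, as can the exon numbers that follow. The Gpx3 codon lies in exon 2 of 5 at chr11:54907256-54907258 (plus strand) and the Gpx8 codon in exon 2 of 3 at chr13:113045661-113045663 (minus strand). Those of Gpx1 (chr9:108339451-108339453, plus strand, exon 1 of 2), Gpx4 (chr10:80054737-80054739, plus strand, exon 3 of 7) and Gpx7 (chr4:108403430-108403432, minus strand, exon 2 of 3) are also exonic.

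Gpx3 (chr11:54902453-54910377, plus strand) encodes the secreted glutathione peroxidase found in plasma and had 669 and 622 TPM in the HFD+Cana mice, against 309 and 394 TPM in the HFD mice. Both treated mice were far above both untreated mice, with group means of 645 ± 33.0 TPM in the HFD+Cana mice and 351 ± 60.0 TPM in the HFD mice (SD, n = 2 each), a ratio of 1.84. The log2 fold change of 0.88 (SE 0.15, adjusted p = 0.235 in limma) was the most positive among the members, and it ranged from 0.71 to 1.06 with 1 mouse left out. Only 0.552% of its transcript words are shared with another gene, Gpx5, which was listed at or near 0. Gpx8 (chr13:113042753-113046410, minus strand), a peroxidase of the endoplasmic reticulum membrane, had 68.9 and 69.2 TPM in the HFD+Cana mice, against 41.9 and 52.9 TPM in the HFD mice. The treated mice were nearly equal to each other and above both untreated mice, which differed more between themselves. Its ratio of means was 1.46 and its log2 fold change 0.54 (SE 0.13, adjusted p = 0.300 in limma), with 0.38 to 0.71 when 1 mouse was left out.

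The other glutathione peroxidases and catalase had smaller differences. Gpx1, the cytosolic selenoenzyme and the member of highest mean level, had 2326 and 2165 TPM in the HFD+Cana mice, against 2151 and 1941 TPM in the HFD mice. The lower treated mouse was barely above the higher untreated mouse (log2 fold change 0.14, SE 0.13, adjusted p = 0.740 in limma). Gpx4, which reduces lipid peroxides in membranes and so guards against ferroptosis, had 1480 and 1559 TPM in the HFD+Cana mice, against 1677 and 1594 TPM in the HFD mice. Its groups were separate in the other direction by a small gap (log2 fold change -0.11, SE 0.11), and 55.5% of its transcript words are shared with other genes, chiefly the copy Gpx4-ps2, so its level is uncertain. Gpx7, like Gpx8 an enzyme of the endoplasmic reticulum, had 42.7 and 33.6 TPM in the HFD+Cana mice, against 37.7 and 36.2 TPM in the HFD mice, which lay between the treated mice. Cat, the peroxisomal catalase, had 551 and 610 TPM in the HFD+Cana mice, against 692 and 639 TPM in the HFD mice. Both treated mice were below the untreated mice (log2 fold change -0.20, SE 0.11, adjusted p = 0.563 in limma).

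The 6 peroxiredoxins use a cysteine to reduce peroxides. Prdx6, which also repairs oxidized phospholipids, had 368 and 506 TPM in the HFD+Cana mice, against 531 and 595 TPM in the HFD mice. The groups were separate, but the first treated mouse set most of the difference (log2 fold change -0.38, SE 0.18, adjusted p = 0.524 in limma), which was -0.15 without it and -0.61 without the other treated mouse. Prdx5, found in mitochondria, peroxisomes and cytosol, had 505 and 563 TPM in the HFD+Cana mice, against 642 and 552 TPM in the HFD mice, and the groups overlapped. The cytosolic Prdx1 had 619 and 606 TPM in the HFD+Cana mice, against 599 and 582 TPM in the HFD mice, a narrow separation in the positive direction. The cytosolic Prdx2 had 152 and 148 TPM in the HFD+Cana mice, against 164 and 157 TPM in the HFD mice, a narrow one in the negative direction. Mitochondrial Prdx3, with 106 and 121 TPM in the HFD+Cana mice and 108 and 117 TPM in the HFD mice, was the member closest to no difference (log2 fold change 0.01, SE 0.10). Prdx4, of the endoplasmic reticulum, had 69.5 and 64.7 TPM in the HFD+Cana mice, against 58.9 and 68.6 TPM in the HFD mice, again with overlap. Over the 12 peroxidases 4 were higher in both treated mice (33.3%), 4 were lower in both (33.3%) and 4 overlapped. Of all genes tested, 24.3% were higher and 19.8% lower in both treated mice. The summed level of the 12 was 6955 and 7067 TPM in the HFD+Cana mice, against 7011 and 6728 TPM in the HFD mice.

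**Figure D2:**
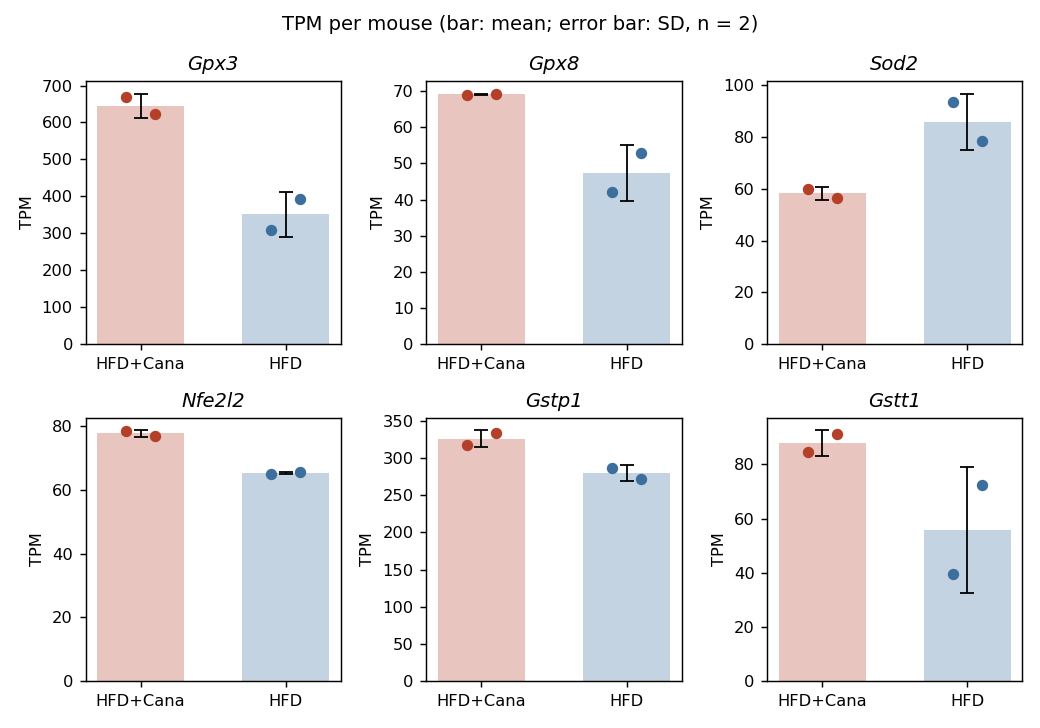
TPM of the 6 members of smallest p in each mouse (points), with bars at the mean and error bars of 1 SD (n = 2 mice per group), HFD+Cana on the left and HFD on the right, and each axis starting at 0. Gpx3, Gpx8, Nfe2l2, Gstp1 and Gstt1 were higher in both HFD+Cana mice and Sod2 was lower in both, and the HFD mice of Gstt1 stand at 39.4 and 72.4 TPM.

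The thioredoxins and their reductases did not share a direction. Txn1, the cytosolic thioredoxin, had 220 and 204 TPM in the HFD+Cana mice, against 195 and 187 TPM in the HFD mice. Its reductase Txnrd1 had 31.5 and 31.8 TPM in the HFD+Cana mice, against 33.3 and 35.9 TPM in the HFD mice. The groups were separate for both genes, with Txn1 higher (log2 fold change 0.15, SE 0.09) and Txnrd1 lower (-0.12, SE 0.08) in the treated mice. The mitochondrial carrier Txn2 had 138 and 137 TPM in the HFD+Cana mice, against 142 and 134 TPM in the HFD mice, and so overlapped. The mitochondrial reductase Txnrd2 had 22.5 and 25.8 TPM in the HFD+Cana mice, against 29.2 and 26.5 TPM in the HFD mice, with both treated mice below (log2 fold change -0.20, SE 0.11, adjusted p = 0.575 in limma). Txnip, which binds and inhibits thioredoxin and is induced by glucose, was the most abundant gene of the system with 1597 and 1830 TPM in the HFD+Cana mice, against 1400 and 1498 TPM in the HFD mice. Both treated mice were above the untreated mice (log2 fold change 0.24, SE 0.13, adjusted p = 0.562 in limma).

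Glutathione is made from glutamate, cysteine and glycine by the glutamate-cysteine ligase, with the catalytic subunit GCLC and the modifier subunit GCLM, and by the synthetase GSS. Gclc had 13.4 and 15.3 TPM in the HFD+Cana mice, against 13.5 and 13.3 TPM in the HFD mice. Gclm had 47.2 and 54.3 TPM in the HFD+Cana mice, against 60.5 and 52.4 TPM in the HFD mice. Gss had 17.2 and 20.5 TPM in the HFD+Cana mice, against 22.1 and 18.6 TPM in the HFD mice. All 3 synthesis genes overlapped between the groups, with log2 fold changes of 0.09, -0.15 and -0.11. Slc7a11, the cystine importer that feeds this synthesis, had 0.242 and 0.107 TPM in the HFD+Cana mice, against 0.148 and 0.112 TPM in the HFD mice, and was the only member under the 1 TPM filter and so not tested. Gsr, the reductase that returns oxidized glutathione to its reduced form, had 28.4 and 25.4 TPM in the HFD+Cana mice, against 24.5 and 21.8 TPM in the HFD mice. Both treated mice were above the untreated mice by less than the spread within either group (log2 fold change 0.21, SE 0.11, adjusted p = 0.548 in limma).

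The glutathione transferases among the members, which join glutathione to electrophiles such as lipid aldehydes, had positive differences. Those outside the members were mixed, as given further below. Gstt1, of the theta class, had 84.6 and 91.3 TPM in the HFD+Cana mice, against 39.4 and 72.4 TPM in the HFD mice. Both treated mice were above, but the untreated mice were far apart (log2 fold change 0.71, SE 0.29, adjusted p = 0.483 in limma). Without the first HFD mouse the value was 0.28, and without the second 1.14. Gstp1, of the pi class, had 318 and 334 TPM in the HFD+Cana mice, against 287 and 272 TPM in the HFD mice. Its groups were tight and separate (log2 fold change 0.22, SE 0.09, adjusted p = 0.470 in limma). Gstp1 shares 57.8% of its transcript words with Gstp2, which was at 20.3 and 15.8 TPM in the HFD+Cana mice and 17.0 and 17.1 TPM in the HFD mice, so reads could be split between them. Gstm1, of the mu class, had 1167 and 1305 TPM in the HFD+Cana mice, against 977 and 1129 TPM in the HFD mice, and 30.4% of its transcript words are shared with other genes. The microsomal Mgst3 had 278 and 328 TPM in the HFD+Cana mice, against 236 and 276 TPM in the HFD mice. Both genes were higher in the treated mice by a narrow gap (log2 fold changes 0.23, SE 0.13, and 0.24, SE 0.13), and with 1 mouse left out the values were 0.13 to 0.34 for Gstm1 and 0.12 to 0.36 for Mgst3. Mgst1, the most abundant member of the glutathione system, had 1454 and 1750 TPM in the HFD+Cana mice, against 1368 and 1587 TPM in the HFD mice, with overlap (log2 fold change 0.11, SE 0.15, adjusted p = 0.818 in limma). Of the 9 tested genes of the glutathione system 5 were higher in both treated mice, 0 were lower in both and 4 overlapped, where 24.3% and 19.8% of all genes tested were higher and lower in both. The median log2 fold change of these 9 was 0.21, and 0 had an unadjusted p under 0.05. Their sum with Slc7a11 was 3408 and 3924 TPM in the HFD+Cana mice, against 3028 and 3443 TPM in the HFD mice, so the groups overlapped.

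**Figure D3:**
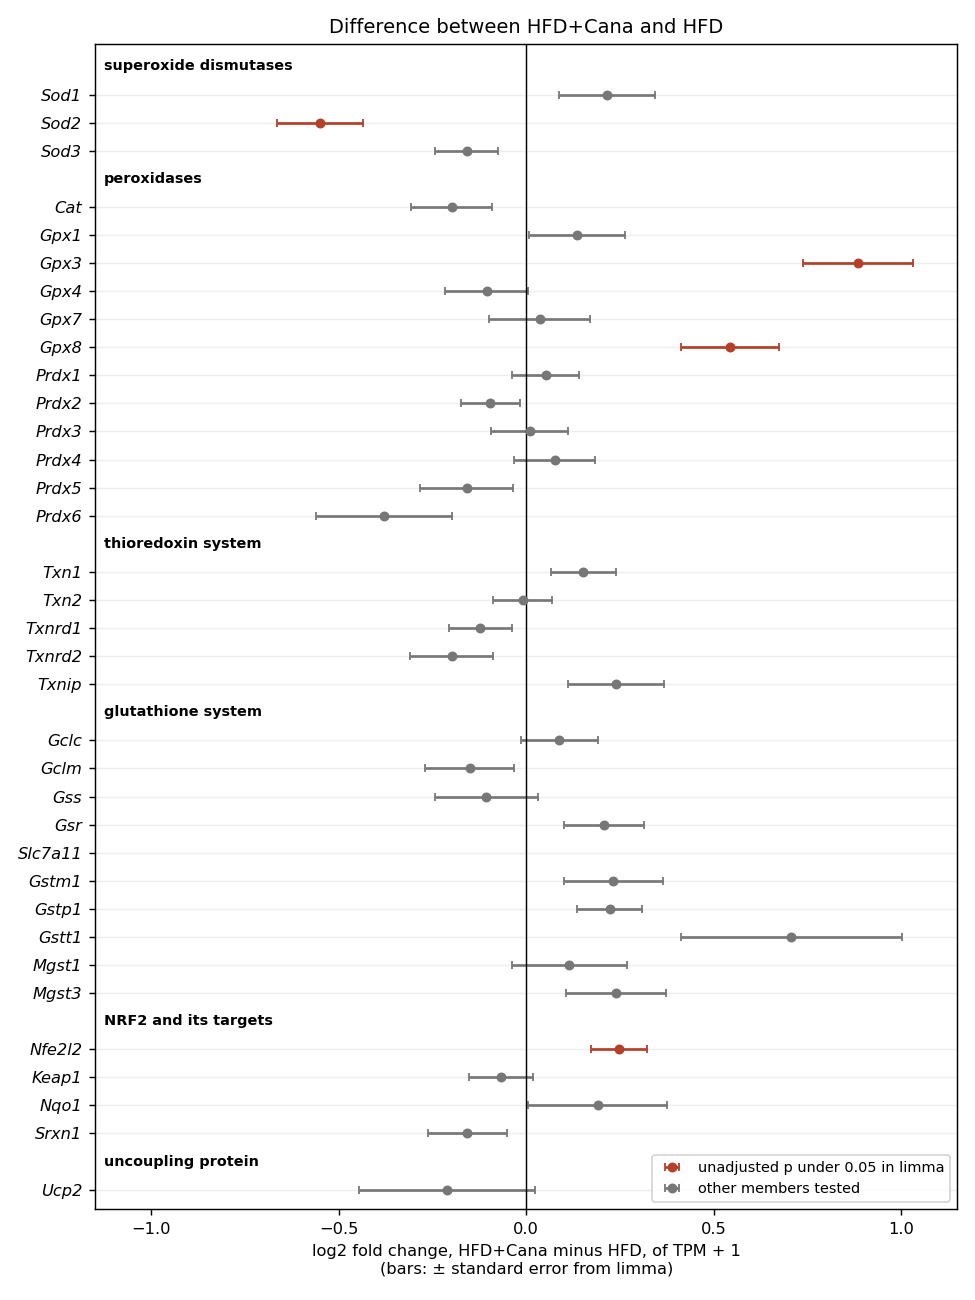
Log2 fold change, HFD+Cana minus HFD, of TPM + 1 for the 34 members tested, with bars of 1 standard error from limma (2 mice per group). Gpx3 at 0.88, Gpx8 at 0.54, Nfe2l2 at 0.25 and Sod2 at -0.55 had an unadjusted p under 0.05, and the row of Slc7a11 is empty because it was not tested.

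Nfe2l2 (chr2:75675513-75704641, minus strand), the gene of NRF2, had 78.5 and 77.1 TPM in the HFD+Cana mice, against 65.1 and 65.7 TPM in the HFD mice. The mice of each group were nearly equal and the groups were separate. The log2 fold change was 0.25 (SE 0.07, adjusted p = 0.380 in limma), with a ratio of means of only 1.19. It was 0.23 to 0.26 with any 1 mouse left out, and its unadjusted p was then no longer under 0.05. Keap1, which holds NRF2 for degradation, had 27.9 and 25.9 TPM in the HFD+Cana mice, against 28.4 and 27.96 TPM in the HFD mice. The treated mice were lower by a very small gap (log2 fold change -0.07, SE 0.09). Nqo1, the quinone reductase often read as the NRF2 target, was low, at 5.62 and 6.15 TPM in the HFD+Cana mice, against 4.18 and 6.01 TPM in the HFD mice, and the groups overlapped (log2 fold change 0.19, SE 0.19). Srxn1, which restores overoxidized peroxiredoxins and is an NRF2 target, had 23.6 and 20.6 TPM in the HFD+Cana mice, against 25.6 and 23.7 TPM in the HFD mice. Here the treated mice were lower (log2 fold change -0.16, SE 0.11, adjusted p = 0.638 in limma).

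NRF2 acts through the antioxidant response element, so the members' promoters were searched for its core, TGACNNNGC, on both strands in the RefSeq windows of GRCm38.p6 that span 250 bases before and 50 bases after each start. Of the members 31 had a window, and Sod3, Gsr, Prdx6 and Gclc had none. The core was found in 8 of these 31 members (25.8%), against 3781 of 27025 genes (14%) with a window. These genes were not filtered by level, so the 2 shares are of unlike sets. The stretches below show where it was found and how its middle bases vary, with the core in capitals and each sequence on the strand of its gene. Where the core lies on the opposite strand, the capitals begin with GC.
Gclm: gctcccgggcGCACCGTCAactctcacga
Mgst1: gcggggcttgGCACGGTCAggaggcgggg
Nfe2l2: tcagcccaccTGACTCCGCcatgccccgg
Prdx1: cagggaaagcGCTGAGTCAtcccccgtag
Sod1: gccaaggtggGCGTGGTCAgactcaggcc
Srxn1: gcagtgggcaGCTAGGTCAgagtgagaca
Txnrd1: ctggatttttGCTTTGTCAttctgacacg
Ucp2: ccctggctccGCCTCGTCAcgccacgccc
The Nfe2l2 stretch (chr2:75704885-75704913, minus strand) has the core as spelled, at position -240 from the start, and the other 7 carry its reverse complement. In Prdx1 (chr4:116685456-116685484, plus strand) the core overlaps TGACTCA, the motif of the AP-1 factors, read on the other strand. The other stretches are all on the plus strand, at chr3:122245413-122245441 (Gclm), chr6:138140461-138140489 (Mgst1), chr16:90220696-90220724 (Sod1), chr2:152105542-152105570 (Srxn1), chr10:82859104-82859132 (Txnrd1) and chr7:100493282-100493310 (Ucp2). The Srxn1 core begins after the start, at position 29, and those of the other 7 before it. A match of these letters is a description and does not show that NRF2 binds there.

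The 8 genes with the core did not share a direction. Their log2 fold changes ran from -0.21 (Ucp2) to 0.25 (Nfe2l2) with a median of -0.04, and 3 were higher in both treated mice, 2 were lower in both and 3 overlapped. Nfe2l2 was the 1 gene among them with an unadjusted p under 0.05. A list of 10 members that are textbook NRF2 targets, which shares Gclm, Prdx1, Srxn1 and Txnrd1 with the 8 above, was also mixed. Of the 9 tested, 4 were higher in both treated mice (44.4%), 2 were lower in both (22.2%) and 3 overlapped. Over all genes tested, 24.3% were higher and 19.8% lower in both treated mice. The median log2 fold change of the 9 was 0.09, and 0 had an unadjusted p under 0.05. Neither Gpx3 nor Sod2 has the core in its window. The GC box GGGCGG, searched in the same way on both strands, was in 27 of the 31 members (87.1%), against 38.2% of all genes with a window, and TATAAA was in 6 (19.4%), against 15.7%. The genes with a window include those under the filter of 1 TPM, which 34 of the 35 members passed, so these shares also compare unlike sets.

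Ucp2, an uncoupling protein of the inner mitochondrial membrane that is abundant in macrophages and is counted among the genes that limit superoxide release, had 666 and 486 TPM in the HFD+Cana mice, against 778 and 557 TPM in the HFD mice. The mice of each group differed more than the groups did (log2 fold change -0.21, SE 0.23, adjusted p = 0.780 in limma). The higher mouse of each group was also the one with the higher sum of 17 macrophage markers, which was 6253 and 3628 TPM in the HFD+Cana mice, against 5137 and 3602 TPM in the HFD mice. The part of macrophages in the level of Ucp2 was not tested.

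Grouped by where the proteins work rather than by chemistry, the 5 members listed as mitochondrial (Sod2, Prdx3, Txn2, Txnrd2 and Ucp2) had a median log2 fold change of -0.20, with 0 higher in both treated mice, 2 lower in both (Sod2 and Txnrd2, 40% of the 5, against 19.8% of all genes) and 3 overlapping. Members found in mitochondria as well as elsewhere, such as Prdx5, were not on this list. Of the 5 selenoproteins, Gpx1 and Gpx3 were higher in both treated mice and Gpx4, Txnrd1 and Txnrd2 were lower in both, so they had no common direction, and of all genes tested 24.3% were higher and 19.8% lower in both treated mice.

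**Figure D4:**
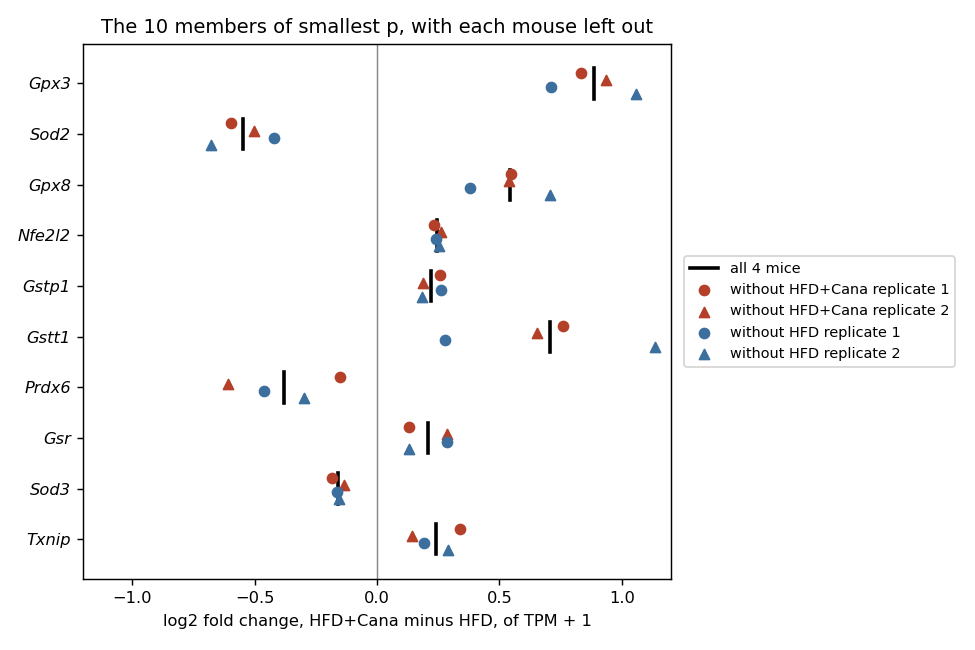
Log2 fold change, HFD+Cana minus HFD, of TPM + 1 for the 10 members of smallest p, with all 4 mice (bars) and with each mouse left out (circles and triangles, red for HFD+Cana and blue for HFD). Every value keeps its side of 0, which was fixed in advance because the groups did not overlap in any of these 10 members. Nfe2l2 and Sod3 move least, and Gstt1 spans 0.28 to 1.14.

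The wider pathway was read from 138 other genes listed by function, of which 120 were tested. Of these 0 passed at an adjusted p under 0.05, and 7 were higher and 11 lower at an unadjusted p under 0.05 (5.83% and 9.17%, against 5.32% and 5.45% of all genes), with a median log2 fold change of -0.01. Among 15 tested genes that supply NADPH, the electron source of both reductases, 0 were higher and 4 were lower at that threshold, with a median of -0.12. Pgd, which makes NADPH in the pentose phosphate pathway, had 249 and 236 TPM in the HFD+Cana mice, against 360 and 310 TPM in the HFD mice (log2 fold change -0.46, SE 0.11, adjusted p = 0.291 in limma). G6pdx, the first enzyme of that pathway, had 235 and 239 TPM in the HFD+Cana mice, against 296 and 286 TPM in the HFD mice (-0.30, SE 0.08, adjusted p = 0.343 in limma). Me1, the cytosolic malic enzyme, had 252 and 245 TPM in the HFD+Cana mice, against 325 and 293 TPM in the HFD mice. Aldh1l1, a folate enzyme that yields NADPH, had 74.2 and 101 TPM in the HFD+Cana mice, against 138 and 124 TPM in the HFD mice. All 4, named because of their unadjusted p, were lower in both treated mice, and none passed the adjusted threshold. Of the 15 genes, 6 were lower in both treated mice (40%, against 19.8% of all genes tested). Tkt, Idh2 and Nnt were the 3 that were higher in both (20%, against 24.3%).

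The 15 tested glutathione transferases outside the members had 9 positive and 6 negative log2 fold changes, with a median of 0.08. Of these, 4 were higher in both treated mice and 4 lower in both (26.7% each, against 24.3% and 19.8% of all genes tested). Among them Gsta4, which detoxifies the lipid aldehyde hydroxynonenal, had 17.2 and 29.8 TPM in the HFD+Cana mice, against 5.83 and 12.6 TPM in the HFD mice (log2 fold change 1.30, SE 0.42, adjusted p = 0.419 in limma). Gstt3 was higher as well (0.46) and Gstz1, which degrades tyrosine products, was lower (-0.32) at an unadjusted p under 0.05. Among genes that supply or use glutathione, Ahcy, which turns S-adenosylhomocysteine into homocysteine, had 38.2 and 47.5 TPM in the HFD+Cana mice, against 25.4 and 24.8 TPM in the HFD mice (0.74, SE 0.13, adjusted p = 0.238 in limma). The methionine sulfoxide reductases Msra and Msrb1, which use thioredoxin to repair oxidized methionine, were lower (-0.43 and -0.37). Bach1, a repressor at antioxidant response elements, had 18.6 and 16.3 TPM in the HFD+Cana mice, against 13.9 and 13.6 TPM in the HFD mice (0.32), while the aldo-keto reductases Akr1b3 and Akr1c13 were lower (-0.33 and -0.24). Of the enzymes that produce oxidants, Maoa, a monoamine oxidase that releases hydrogen peroxide, had 25.96 and 27.3 TPM in the HFD+Cana mice, against 43.3 and 38.6 TPM in the HFD mice (-0.60, SE 0.10, adjusted p = 0.226 in limma). The endothelial nitric oxide synthase Nos3 was also lower (-0.36), beside a summed level of 10 endothelial markers of 940 and 1062 TPM in the HFD+Cana mice, against 1214 and 1145 TPM in the HFD mice, whose part in this was not tested. Aox3, an aldehyde oxidase, had 2.62 and 4.18 TPM in the HFD+Cana mice, against 1.73 and 1.68 TPM in the HFD mice (0.68). Ptgs2, the inducible cyclooxygenase, had 1.52 and 2.41 TPM in the HFD+Cana mice, against 0.357 and 0.625 TPM in the HFD mice (0.98). Both genes were near the floor, and Ptgs2 reached the filter of 1 TPM only through the HFD+Cana mice. None of the 10 tested genes that make or carry selenoproteins had an unadjusted p under 0.05, and Selenop, the plasma carrier of selenium, had 2615 and 2019 TPM in the HFD+Cana mice, against 2355 and 2101 TPM in the HFD mice.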

How the data were processed

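Polyadenylated RNA of gWAT from 4 mice was sequenced by the authors in paired reads of 150 bases. Reads were run by the authors through nf-core/rnaseq 3.12.0 (default settings, nextflow 23.10.0), and the deposited values are TPM (transcripts of a gene scaled to one fixed total per sample) as estimated by salmon. GRCm38, mm10 and R 4.3.2 are named in the submitters' processing notes. The annotation release was not given in the sources used here. TPM keeps no read depth, so the depth behind each value is unknown and no count model was used. The mice of a group are separate biological replicates according to the study.

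The 13788 genes whose mean over the 4 mice reached 1 TPM were fitted as log2(TPM + 1) with limma 3.58.1 in R 4.3.3 (empirical Bayes with trend, group as the only term), with two-sided tests and Benjamini-Hochberg adjustment. A fold change on this scale understates the change of low genes. The procedure was tested on simulated data. Of the gene IDs, 45143 were found in GENCODE M21, which gave positions, and 27 names that a spreadsheet had turned into dates were restored by ID. Selenop is listed under its older symbol, and the marker Ahsp was not analysed here. Near-copies were counted as words of 31 bases shared with transcripts of other genes. Every member is given with its values, full statistics go to the 10 members of smallest p and the most abundant member of each role, and pathway genes are named at an unadjusted p under 0.05, except 1 that is not reported here. The members and lists were chosen with earlier results of these data known. Tables were made with pandas 2.3.3 and figures with matplotlib 3.10.9.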

Additional observations from a re-analysis of the deposited data

How the results depend on the processing

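Under the 14 alternatives (pseudocount, filter, scaling, variance model, replicate block and leaving out each mouse), 0 members passed an adjusted p under 0.05, and the smallest adjusted p of a member lay between 0.166 and 0.737. Gpx3, Gpx8 and Sod2 had an unadjusted p under 0.05 in every alternative, and Nfe2l2 in the 10 that kept all mice but in none that left a mouse out. The count of members higher at that threshold was 2 to 3 and of members lower 1 to 2 with 1 mouse left out, the 2 being Sod2 and Prdx6 without HFD+Cana replicate 2. Over all genes the 6 calls became 0 with a pseudocount of 0.1, without a filter, when the mean had to reach 5 TPM, with quantile normalization and with any mouse left out, 2 with a pseudocount of 5, and 13 without the trend, so calls over all genes depend on these settings. The labels state no pairing, and the replicate numbers are only shared: the differences between replicates of the groups correlated at 0.178 over 13788 genes. With the replicate block, 9 members were higher and 3 lower at an unadjusted p under 0.05, 2 genes in all passed the adjusted threshold, and the smallest adjusted p of a member was 0.166 (Sod2).

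Signs turned in 8 members. Txn2 was 0.0241 with quantile normalization and Prdx3 -0.0155 with median-of-ratios scaling. With 1 mouse left out, the log2 fold changes ranged from -0.132 to 0.204 for Gpx7, -0.228 to 0.0158 for Gss, -0.0856 to 0.103 for Prdx3, -0.0183 to 0.248 for Mgst1, -0.451 to 0.0303 for Ucp2, -0.0321 to 0.185 for Prdx4, -0.0496 to 0.0319 for Txn2 and -0.0271 to 0.409 for Nqo1. A fit with 1 mouse in an arm assumes that this mouse varies like those of the other group. With 2 mice per group, differences of the size seen in most members could not be told from the spread between mice.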
